A study of Mus musculus with 14 samples.

Results

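The 35 genes described here encode the enzymes of mitochondrial fatty acid beta-oxidation, the final oxidation steps of branched-chain amino acids and of odd-chain fatty acids, and the enzymes that make or use ketone bodies. They were picked by symbol, out of 24972 gene symbols with deposited expression values, and all 35 are among them. The cells are mouse hepatocellular carcinoma (HCC) lines grown from tumors that diethylnitrosamine had induced in Acly f/f mice, so every genotype descends from cells with a floxed Acly gene. WT cells (D42V, 4 libraries) keep both enzymes under study and carry LentiCRISPR v2 with no guide RNA as a bulk population. ACLY KO cells (D42C4V, 4 libraries) lost ACLY through adenoviral Cre, descend from a single cell and carry the same guideless vector. ACSS2 KO cells (D42 Sg2-3, 3 libraries) and the double knockout DKO1 (D42C4 Sg2-2, 3 libraries) were made from D42 and D42C4 cells with the guide mACSS2sg2, which targets the first exon of Acss2, and each is 1 single-cell clone. All cells were cultured for 24 hours in DMEM with 10% calf serum before RNA extraction. ACLY (ATP-citrate lyase) makes cytosolic acetyl-CoA from citrate and ACSS2 makes it from acetate, so the 4 genotypes allow the loss of each enzyme to be compared in cells that have or lack the other. With 1 clone per knockout genotype, genotype and clone cannot be told apart. Nothing states that the libraries of a genotype come from separate experiments, so p-values measure only the spread between these libraries.

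Beta-oxidation shortens a fatty acyl-CoA in the mitochondrial matrix by a repeated spiral of dehydrogenation, hydration, a further dehydrogenation and thiolysis, each turn releasing acetyl-CoA. The first dehydrogenation is shared among acyl-CoA dehydrogenases with different chain-length preferences, whose electrons pass through electron transfer flavoprotein (ETF) and its oxidoreductase to ubiquinone. Unsaturated fatty acids need auxiliary isomerases and a reductase to enter the spiral. Normal hepatocytes oxidize fatty acids and export ketone bodies, but they contain little of the ketone-using transferase encoded by Oxct1.

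Gene counts had been normalized with DESeq before deposit, and such values are called normalized counts below. The 35 genes held 0.149 to 0.165% of all normalized counts in the WT libraries, 0.196 to 0.207% in ACLY KO, 0.175 to 0.187% in ACSS2 KO and 0.186 to 0.216% in DKO1. In 1 library of each genotype, the deviations of genes from the genotype's mean fell with transcript length, with Spearman rho of -0.71 in DKO1 replicate 4, -0.62 in WT replicate 2, -0.60 in ACLY KO replicate 4 and -0.55 in ACSS2 KO replicate 1 (across 12609 genes, which are not independent). DKO1 replicate 4 held the highest share of member counts of all libraries and lay far from the other DKO1 libraries for several members. Every result that uses DKO1 was therefore also computed without it. Acly, the deleted gene, had a mean of 6049.7 ± 423 (SD, n = 4) for WT against 1001 ± 56.1 (SD, n = 4) for ACLY KO and 946 ± 12.9 (SD, n = 3) for DKO1. Acss2 had 237 ± 11.5 (SD, n = 4) for WT and 132 ± 4.88 (SD, n = 3) for ACSS2 KO, and 718 ± 56.7 (SD, n = 4) for ACLY KO and 535 ± 69.1 (SD, n = 3) for DKO1. It was lower with ACSS2 loss in both backgrounds, by log2 fold changes of -0.84 (adjusted p = 2.8e-05) and -0.43 (adjusted p = 0.0044). The epithelial keratins Krt8 and Krt18 averaged 21193 and 20336 normalized counts across the libraries, and the bile duct keratins Krt7 and Krt19 8686 and 7562. Of 9 hepatocyte markers 5 averaged at least 10. Apoa1 and Serpina1a were the lowest of the 9, at most 1.497 and 2.57 in any library. The list of 9 summed to 324 to 426 for WT, 271 to 334 for ACLY KO, 291 to 305 for ACSS2 KO and 533 to 594 for DKO1. The 5 that averaged at least 10 did not move together. From WT to DKO1, mean counts went from 112 to 282 for Apob, 37.0 to 210 for Afp and 15.2 to 34.0 for Apoa2. Over the same genotypes they went from 172 to 22.4 for Hnf4a and 31.4 to 11.3 for Alb. The 4 bile duct markers summed to 21647 to 31968 for WT, 8608 to 9374 for ACLY KO, 18274 to 20516 for ACSS2 KO and 11194 to 18276 for DKO1, and the 4 fibroblast and stellate cell markers to 389.9 to 471 for WT, 2321 to 2699 for ACLY KO, 539 to 571 for ACSS2 KO and 485 to 572 for DKO1. The last sum is mostly Col1a1, at 428 on average in WT and 2454 in ACLY KO, while Pdgfra averaged 0.242 and 0. The 3 endothelial markers summed to 17.5 to 27.1 for WT, 77.1 to 90.6 for ACLY KO, 10.5 to 18.3 for ACSS2 KO and 40.2 to 51.2 for DKO1. Among these, Pecam1 averaged 7.51 in WT and 61.7 in ACLY KO, Cdh5 1.54 and 18.9, and Kdr 12.9 and 2.21. These lists move with genotype, their part in the results below was not tested, and bulk RNA does not tell fewer cells of a kind from less RNA per cell.

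Across the pathway, ACLY loss went with higher expression of several dehydrogenases and later enzymes, while single genes of the auxiliary, electron transfer and ketone steps went their own way. Of the 35 genes, 34 averaged at least 10 normalized counts and were tested together with 12711 genes in all, with limma on log2(normalized count + 1). A gene is called here at a Benjamini-Hochberg adjusted p under 0.05 over all those genes. Bdh1, at 2.78 on average, was not tested. In ACLY KO against WT, 16 members rose and 5 fell, where 23.8% of all genes rose and 24.7% fell. Their median log2 fold change was 0.32, against -0.0067 for all genes. In DKO1 against ACSS2 KO, which also differ by ACLY, 10 rose and 3 fell (background 25.9% and 27.8%), with a median of 0.12. In ACSS2 KO against WT, 5 rose and 2 fell (background 15.1% and 11.0%), with a median of 0.19. In DKO1 against ACLY KO, 7 rose and 5 fell (background 14.3% and 13.6%), with a median of 0.044. In DKO1 against WT, 18 rose and 2 fell (background 27.9% and 28.1%), with a median of 0.29. The share that rose was above its background in both comparisons with WT that involve ACLY, and near it in DKO1 against ACSS2 KO and in ACSS2 KO against WT. Without DKO1 replicate 4, 22 higher and 6 lower members were called in ACLY KO against WT (all genes 30.1% and 31.4%), 9 higher and 5 lower in DKO1 against ACSS2 KO (28% and 29.1%) and 17 higher and 3 lower in ACSS2 KO against WT (21.4% and 18.7%). The same omission gave 7 higher and 5 lower in DKO1 against ACLY KO (16.1% and 15.3%) and 17 higher and 5 lower in DKO1 against WT (30.3% and 31%). Calls over all genes thus rose as well, including in ACSS2 KO against WT, which that library enters only through the shared spread. Member medians without it were 0.031 in DKO1 against ACSS2 KO, -0.035 in DKO1 against ACLY KO and 0.20 in DKO1 against WT. In DKO1 against ACSS2 KO, 18 of the 34 members then lay above 0, instead of 25. Scaling also moved ACSS2 KO against WT, to 16 higher and 1 lower at equal library totals (all genes 20.1% and 6.43%), where the median of all genes shifts to 0.11, and to 3 higher and 3 lower after quantile normalization (all genes 12.5% and 11.7%).

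**Figure D1:**
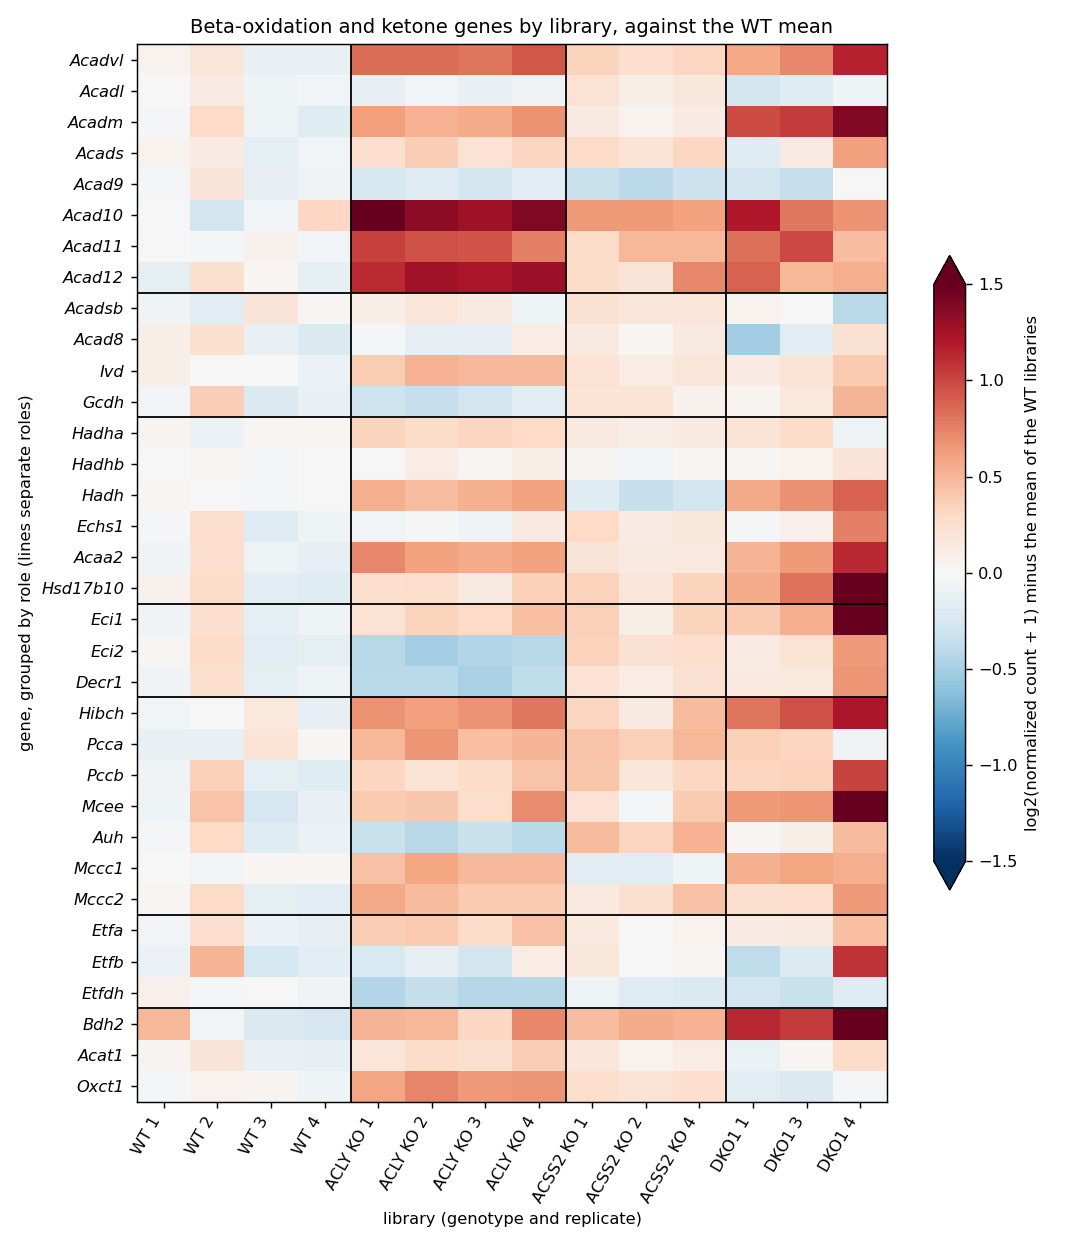
Each square is 1 gene in 1 library, coloured by log2(normalized count + 1) minus the mean of the 4 WT libraries (red higher, blue lower; values beyond 1.5 take the end colour), with lines between genotypes and between roles. Acadvl, Acadm, Acad11, Hadh, Acaa2, Hibch and Mccc1 are red throughout the ACLY KO and DKO1 columns, Eci2 and Decr1 are bluest in the ACLY KO columns, and DKO1 replicate 4 is darker red than its 2 companions for Eci1, Hsd17b10, Mcee and Etfb.

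The chain-length dehydrogenases did not change in the order of chain length. In ACLY KO against WT, 5 of the 8 rose and 1 fell (all genes 23.8% and 24.7%). Acadvl and Acadm were higher, and Acadl and Acads were not called. Acadvl (very long-chain acyl-CoA dehydrogenase, chromosome 11, 70010183 to 70015411 in GRCm38) takes long fatty acyl-CoAs at the inner membrane. Its normalized counts were 1687, 1856, 1507 and 1505 (WT), 2909, 2913, 2849.6 and 3103 (ACLY KO), 2064, 1943 and 2027 (ACSS2 KO) and 2439, 2691 and 3638 (DKO1). All 7 ACLY-deficient libraries lay above all 7 ACLY-proficient libraries. The log2 fold change was 0.85 ± 0.11 (SE, adjusted p = 2.4e-05) in ACLY KO against WT and 0.52 ± 0.12 (SE, adjusted p = 0.0035) in DKO1 against ACSS2 KO. Acadm (medium-chain acyl-CoA dehydrogenase, chromosome 3, 153922357 to 153944632) is the enzyme whose deficiency is the classic inherited disorder of beta-oxidation. Libraries held 1536, 1903, 1489.5 and 1379 for WT, 2408, 2240.4, 2304 and 2489 for ACLY KO, 1713, 1623 and 1703 for ACSS2 KO and 3093, 3230.3 and 4088 for DKO1. Its order was WT and ACSS2 KO, which overlapped, then ACLY KO, then DKO1, with no overlap between the last genotypes. ACLY loss went with 0.59 ± 0.10 (SE, adjusted p = 3.4e-04) in cells with ACSS2 and 1.04 ± 0.12 (SE, adjusted p = 8.7e-06) in cells without it. Acadm was also higher in DKO1 than in ACLY KO, by 0.55 ± 0.11 (SE, adjusted p = 0.0029). Genes within 10 Mb of Acadm (47 tested) had medians of 0.26, 0.88 and 0.30 in those comparisons. The part of the region in the result was not tested. Here and below, these neighbour medians were added after member values had been seen.

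Acadl and Acads did not follow. Acadl encodes long-chain acyl-CoA dehydrogenase, and per kilobase of transcript its level was the highest of the 8, at 2034 normalized counts in WT against 756 for Acadvl, 770.4 for Acadm and 597 for Acads. Per library, Acadl stood at 3867, 4232, 3718 and 3776 (WT), 3564, 3778, 3595 and 3741 (ACLY KO), 4528, 4136 and 4365 (ACSS2 KO) and 3211, 3429.9 and 3736 (DKO1). ACLY KO overlapped WT, with a log2 fold change of -0.086 ± 0.062 (SE, adjusted p = 0.28), and DKO1 lay below ACSS2 KO in every library, by -0.33 ± 0.072 (SE, adjusted p = 0.0018). Acads encodes the enzyme for short-chain acyl-CoAs. It had 1155, 1214, 1014 and 1085 for WT, 1331, 1438, 1297 and 1395 for ACLY KO, 1359, 1283 and 1383 for ACSS2 KO and 981, 1211 and 1714 for DKO1. Its ACLY KO libraries lay above the WT libraries, but the log2 fold change of 0.29 ± 0.13 (SE, adjusted p = 0.083) was not called with all libraries. When DKO1 replicate 4 was left out, whose 1714 is far from the other DKO1 values, the same difference was called (adjusted p = 0.0036). In DKO1 against ACSS2 KO, Acads then went the other way, at -0.30 (adjusted p = 0.015), against -0.082 ± 0.15 (SE, adjusted p = 0.67) with all libraries.

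Acad10 and Acad12 gave the largest rises of the 34 tested genes in ACLY KO. They are neighbouring paralogs of little-studied function on chromosome 5, with 2088 bases between the 2 genes, and reads that match both could have been split between them. Acad10 held 76.7, 63.1, 74.5 and 95.1 across the WT libraries, 258, 195, 186 and 203 across those of ACLY KO, 120.0, 119 and 116 across ACSS2 KO and 178, 133 and 123 across DKO1. For Acad12 the counts were 55.6, 72.4, 62.1 and 55.1 (WT), 134, 148, 144 and 149 (ACLY KO), 73.8, 69.7 and 101 (ACSS2 KO) and 113, 86.3 and 89.5 (DKO1). Both had their highest values in the ACLY KO libraries, which overlapped no other genotype, and WT was lowest, overlapping ACSS2 KO for Acad12 alone. The log2 fold changes in ACLY KO against WT were 1.43 ± 0.15 (SE, adjusted p = 3.4e-06) for Acad10 and 1.22 ± 0.14 (SE, adjusted p = 7.4e-06) for Acad12. In DKO1 against ACLY KO both fell, at -0.54 ± 0.16 (SE, adjusted p = 0.022) and -0.58 ± 0.15 (SE, adjusted p = 0.011). With DKO1 replicate 4 left out, the fall of Acad10 was -0.44 and not called (adjusted p = 0.067), while that of Acad12 stayed called at -0.53 (adjusted p = 0.027). Acad11, a paralog on chromosome 9 linked to longer chains, shared part of the pattern. Acad11 stood at 248, 243, 258 and 239.8 for WT, 504, 479, 475 and 417 for ACLY KO, 299.6, 350.3 and 349.6 for ACSS2 KO and 439, 493 and 342 for DKO1. It rose by 0.92 ± 0.11 (SE, adjusted p = 1.0e-05) in ACLY KO against WT, by 0.42 ± 0.11 (SE, adjusted p = 0.015) in ACSS2 KO against WT and by 0.34 ± 0.12 (SE, adjusted p = 0.033) in DKO1 against ACSS2 KO, where the libraries overlapped. Acad9, which acts on long-chain substrates and is also an assembly factor of respiratory complex I, went down instead. Its counts were 1372, 1590.5, 1282 and 1342 across the WT libraries, 1178, 1214, 1150.0 and 1248 across those of ACLY KO, 1108, 1059 and 1114 across ACSS2 KO and 1148, 1098 and 1393 across DKO1. It fell in ACSS2 KO against WT, at -0.35 ± 0.089 (SE, adjusted p = 0.011), and in ACLY KO against WT, at -0.22 ± 0.083 (SE, adjusted p = 0.044), where the 57 genes within 10 Mb had medians of -0.27 and -0.31. The call in ACLY KO was lost under 14 alternative settings.

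Acadvl and Acadm, which rose with ACLY loss in both backgrounds, have promoters with the nuclear receptor core letters AGGTCA, and these are shown so that its place can be seen. Each run covers 250 bases before to 50 bases after the start given by RefSeq (GRCm38.p6), 5′ to 3′ on the gene's strand, with AGGTCA or its reverse complement in capitals. The Acadvl window is chr11:70015379-70015678 and the Acadm window chr3:153944594-153944893, both on the minus strand.
Acadvl: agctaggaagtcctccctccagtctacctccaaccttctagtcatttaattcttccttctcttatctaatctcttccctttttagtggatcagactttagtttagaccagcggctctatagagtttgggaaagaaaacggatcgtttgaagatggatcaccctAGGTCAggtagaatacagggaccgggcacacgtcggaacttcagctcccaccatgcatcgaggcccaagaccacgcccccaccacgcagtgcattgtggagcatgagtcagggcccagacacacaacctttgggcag
Acadm: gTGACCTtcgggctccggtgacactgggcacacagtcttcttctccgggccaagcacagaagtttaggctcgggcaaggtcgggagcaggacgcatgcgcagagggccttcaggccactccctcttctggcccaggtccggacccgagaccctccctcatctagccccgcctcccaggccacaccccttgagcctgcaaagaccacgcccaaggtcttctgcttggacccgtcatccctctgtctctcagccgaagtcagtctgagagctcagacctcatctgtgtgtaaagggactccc
Among 33 promoters of 31 members, 5 held AGGTCA on either strand (15.2%), in Acadvl, Acadm, Echs1 and Pcca, against 16.3% of all 32841 promoters. None held the longer estrogen-related receptor site TCAAGGTCA, which contains those letters, or a DR1 (a pair of such sites 1 base apart), which 0.423% and 0.0396% of all promoters hold. These are matches of letters in a short window and say nothing of binding.

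**Figure D2:**
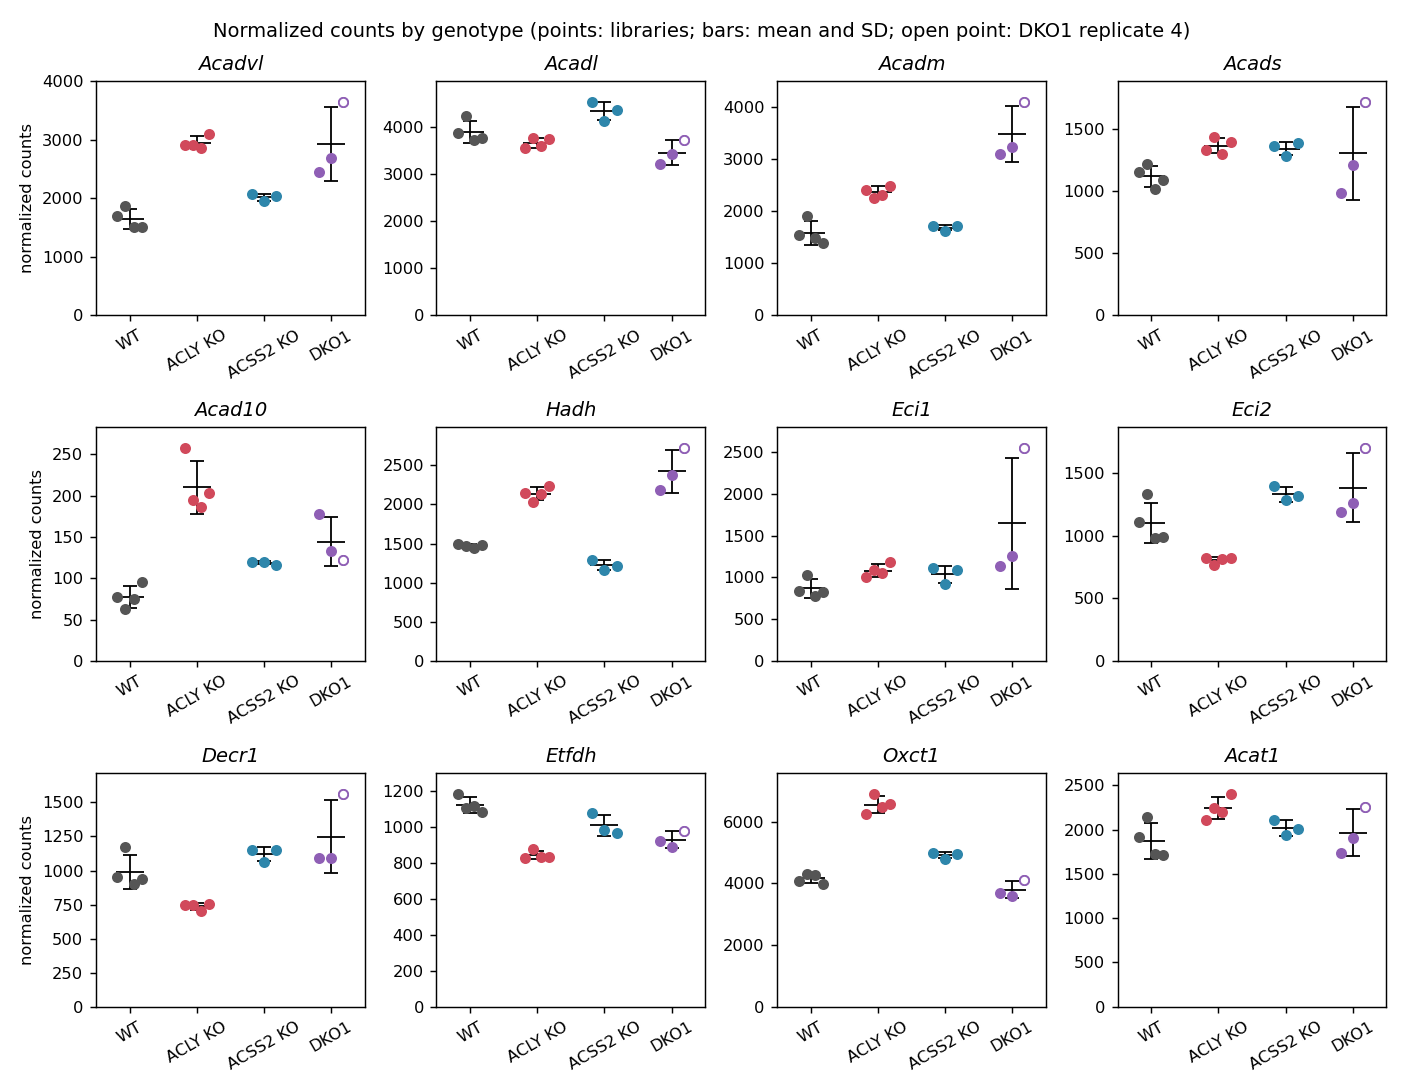
Normalized counts (linear axes from 0) of 12 genes by genotype; points are libraries, bars are the mean ± SD, and the open point is DKO1 replicate 4. Acadvl, Acadm and Hadh are higher in ACLY KO and DKO1 than in WT and ACSS2 KO, Oxct1 is highest in ACLY KO at 6257 to 6907, and Eci2 and Decr1 are lowest there.

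Of the 4 dehydrogenases of branched-chain amino acid and lysine breakdown, Ivd alone was called in ACLY KO against WT. Ivd (isovaleryl-CoA dehydrogenase, leucine) ranged over 652 to 733 for WT, 902 to 989 for ACLY KO, 744 to 805 for ACSS2 KO and 754 to 908 for DKO1. It rose by 0.47 ± 0.067 (SE, adjusted p = 6.7e-05) in ACLY KO and fell in DKO1 against ACLY KO, at -0.23 ± 0.073 (SE, adjusted p = 0.033), with ranges that overlapped at their ends. Gcdh (glutaryl-CoA dehydrogenase, lysine and tryptophan) had 428 to 488 in ACLY KO and 560.5 to 777 in DKO1, a difference of 0.51 ± 0.14 (SE, adjusted p = 0.014), and the 127 genes within 10 Mb had a median of 0.18. Acadsb (2-methylbutyryl-CoA, isoleucine) was called in DKO1 against ACSS2 KO, at -0.31 ± 0.12 (SE, adjusted p = 0.043), but its DKO1 libraries held 1321, 1279.6 and 956 and the value without replicate 4 was -0.16 (adjusted p = 0.15). Acad8 (isobutyryl-CoA, valine) was called nowhere with all libraries, with log2 fold changes from -0.25 to 0.10 in the 4 comparisons that isolate 1 enzyme.

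Among the 6 genes of the later spiral, Hadha, Hadh and Acaa2 rose in ACLY KO against WT, and Hadh, Acaa2 and Hsd17b10 in DKO1 against ACSS2 KO. Hadh, the 3-hydroxyacyl-CoA dehydrogenase for medium and short chains (chromosome 3, 131233419 to 131272101), is also known as a restraint on insulin secretion. Its libraries held 1501, 1470.1, 1442 and 1482 (WT), 2144, 2029, 2136 and 2233 (ACLY KO), 1295, 1164 and 1213 (ACSS2 KO) and 2183, 2372 and 2721 (DKO1). The genotypes fell in the order ACSS2 KO, WT, then ACLY KO and DKO1, and the last pair overlapped. Hadh rose by 0.53 ± 0.068 (SE, adjusted p = 2.3e-05) in ACLY KO against WT and by 0.98 ± 0.078 (SE, adjusted p = 2.8e-07) in DKO1 against ACSS2 KO, and fell by 0.27 ± 0.073 (SE, adjusted p = 0.015) in ACSS2 KO against WT. Its 74 neighbours within 10 Mb had medians of 0.34, 0.89 and -0.32 in the same comparisons. Acaa2, on chromosome 18, is the 3-ketoacyl-CoA thiolase that ends the spiral for medium chains. It had 588, 725, 576 and 558 for WT, 1004, 925, 897 and 923 for ACLY KO, 696, 667 and 674 for ACSS2 KO and 864, 946 and 1329 for DKO1. All ACLY-deficient libraries exceeded all ACLY-proficient ones, with log2 fold changes of 0.62 ± 0.12 (SE, adjusted p = 7.4e-04) and 0.60 ± 0.14 (SE, adjusted p = 0.0026). Echs1 (enoyl-CoA hydratase) was not called in any comparison, and stood at 0.00085 ± 0.15 (SE) in ACLY KO against WT.

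Hsd17b10 depends on DKO1 replicate 4 for its size. Its product acts in isoleucine breakdown and is a subunit of mitochondrial RNase P. The counts were 1038, 1201, 893 and 876 across the WT libraries, 1188, 1191, 1092 and 1276 across those of ACLY KO, 1267, 1126 and 1256 across ACSS2 KO and 1467, 1742 and 3383 across DKO1. All DKO1 libraries lay above the rest, and replicate 4 was the highest by far. DKO1 exceeded ACLY KO by 0.79 ± 0.22 (SE, adjusted p = 0.016), and by 0.43 without that library (adjusted p = 0.014). The gene is on the X chromosome, where 48 genes within 10 Mb had a median of 0.41 in this comparison.

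Hadha and Hadhb encode the alpha and beta subunits of the mitochondrial trifunctional protein, which runs the last 3 reactions for long chains. The 2 genes lie head to head with 86 bases between their GENCODE starts, and the promoter windows, set on RefSeq starts that differ from these, share 228 bases. The Hadhb window, chr5:30155003-30155302 on the plus strand, is printed because of that shared stretch, and it holds none of the searched letters.
Hadhb: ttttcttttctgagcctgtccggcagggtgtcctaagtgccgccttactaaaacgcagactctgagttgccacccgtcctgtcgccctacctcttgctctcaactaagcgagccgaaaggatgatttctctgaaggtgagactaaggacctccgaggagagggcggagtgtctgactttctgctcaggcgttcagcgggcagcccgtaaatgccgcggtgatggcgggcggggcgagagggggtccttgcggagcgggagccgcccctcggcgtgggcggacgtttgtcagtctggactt
Hadha ranged over 3296 to 3619.6 in WT and 4269 to 4430.0 in ACLY KO, which did not overlap, while Hadhb ranged over 2229 to 2300.1 and 2238 to 2436, which did. Only Hadha was called. The log2 fold changes were 0.31 ± 0.069 (SE, adjusted p = 0.0023) and 0.059 ± 0.054 (SE, adjusted p = 0.39). In DKO1, Hadha held 4063, 4239.6 and 3339.5 and Hadhb 2288, 2345 and 2585, so that replicate 4 was lowest for the first and highest for the second. The GENCODE transcripts used for length are 4017 bases for Hadha and 2048 for Hadhb, and the length trend of that library runs the same way. In DKO1 against ACSS2 KO, Hadha stood at 0.013 (adjusted p = 0.90), and at 0.14 (adjusted p = 0.012) after a transcript length correction. Hadhb stood at 0.082 (adjusted p = 0.28) and then at -0.033 (adjusted p = 0.60). In ACLY KO against WT the corrected values were 0.33 for Hadha and 0.048 for Hadhb. The cause of the difference between the genes was not tested.

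The auxiliary genes for unsaturated fatty acids did not move together. Of the 3, Eci2 and Decr1 fell in ACLY KO against WT, and both were higher in DKO1 than in ACLY KO. Decr1 encodes the 2,4-dienoyl-CoA reductase, which removes double bonds at even positions (chromosome 4, 15917240 to 15945507). It held 953, 1171, 898 and 937 (WT), 745, 745, 700.4 and 757 (ACLY KO), 1148, 1061 and 1149 (ACSS2 KO) and 1092, 1095 and 1563 (DKO1). The ACLY KO libraries were the 4 lowest of all 14. Decr1 fell by 0.42 ± 0.11 (SE, adjusted p = 0.0078) in ACLY KO against WT and rose by 0.74 ± 0.12 (SE, adjusted p = 6.7e-04) in DKO1 against ACLY KO. The rise was 0.57 without DKO1 replicate 4 (adjusted p = 3.9e-04). The 45 genes within 10 Mb had medians of 0.024 and -0.072, close to 0 in both comparisons.

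Eci2, an enoyl-CoA delta isomerase found in mitochondria and peroxisomes, gave nearly the same values (chromosome 13, 34977748 to 35027096). The libraries had 1111, 1331, 985 and 993 for WT, 819.8, 767, 811 and 824 for ACLY KO, 1399.5, 1283 and 1315 for ACSS2 KO and 1189.8, 1263 and 1702 for DKO1. ACLY KO again held the 4 lowest. The fall in ACLY KO was -0.45 ± 0.11 (SE, adjusted p = 0.0058) and the difference between DKO1 and ACLY KO was 0.76 ± 0.12 (SE, adjusted p = 6.0e-04), or 0.61 without DKO1 replicate 4 (adjusted p = 5.9e-04). Unlike Decr1, Eci2 moved with its region. Its 73 neighbours within 10 Mb on chromosome 13 had medians of -0.55 and 0.64, and all 475 tested genes of the chromosome -0.42 and 0.32. The part of the region was not tested. Eci1, the mitochondrial isomerase for short and medium chains, was not called in ACLY KO against WT with all libraries. Eci1 stood at 834, 1028, 782 and 826 across the WT libraries, 1004, 1089, 1057 and 1182 across those of ACLY KO, 1109.7, 919 and 1085 across ACSS2 KO and 1131, 1262 and 2551 across DKO1. Its ACLY KO libraries lay within and above the WT range, with 0.33 ± 0.20 (SE, adjusted p = 0.20). The same difference was called when DKO1 replicate 4 was left out (adjusted p = 0.0071), a library that enters it only through the shared spread. DKO1 against WT was called at 0.83 ± 0.22 (SE, adjusted p = 0.0053), of which 0.47 was left without replicate 4 (adjusted p = 0.0025).

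Electron transfer showed opposite changes along a single chain. Etfa and Etfb encode the subunits of ETF, which collects electrons from the dehydrogenases, and Etfdh encodes the oxidoreductase that hands them to ubiquinone. Etfa held 2614, 3197, 2525 and 2475 (WT), 3479, 3517, 3258 and 3635 (ACLY KO), 2968, 2677 and 2792 (ACSS2 KO) and 2926, 2959.8 and 3667 (DKO1). Etfdh held 1186, 1109.5, 1117 and 1085 for WT, 826, 878, 836 and 836 for ACLY KO, 1079, 986 and 969 for ACSS2 KO and 922, 889 and 981 for DKO1. Every ACLY KO library was above every WT library for Etfa and below every one for Etfdh. The log2 fold changes were 0.37 ± 0.093 (SE, adjusted p = 0.0050) and -0.41 ± 0.057 (SE, adjusted p = 4.7e-05). Neither gene was called in DKO1 against ACSS2 KO, where they stood at 0.17 ± 0.11 and -0.12 ± 0.066 (SE). Etfdh was lower in DKO1 than in WT, by -0.27 ± 0.061 (SE, adjusted p = 0.0021). The 100 genes within 10 Mb of Etfdh had a median of -0.32 in ACLY KO against WT and -0.32 in DKO1 against WT, and their part in the result was not tested. For Etfb the counts were 1649, 2485, 1453 and 1573 across the WT libraries, 1495.3, 1612, 1445 and 1884 across those of ACLY KO, 1961, 1762 and 1767 across ACSS2 KO and 1348, 1519 and 3711 across DKO1. Its highest values were in DKO1 replicate 4 and WT replicate 2, where deviations fell with transcript length (rho -0.62 in the latter), and Etfb was not called in any comparison. Its transcript is 893 bases long.

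Of the 7 genes of propionyl-CoA, leucine and valine breakdown, 4 rose and 1 fell in ACLY KO against WT (all genes 23.8% and 24.7%). Hibch and Mccc1 rose with ACLY loss in both backgrounds. Hibch removes CoA from a valine intermediate. It held 294, 303, 335 and 278 (WT), 483, 463, 483 and 522 (ACLY KO), 377, 331 and 420.4 (ACSS2 KO) and 526, 588 and 703 (DKO1). Mccc1 and Mccc2 are the subunits of methylcrotonyl-CoA carboxylase in leucine breakdown. Mccc1 held 548, 535, 563 and 561 for WT, 747, 830.4, 775 and 776 for ACLY KO, 493, 492 and 526 for ACSS2 KO and 802, 830.0 and 807 for DKO1. For both genes the ACLY-deficient libraries lay above all others. Hibch rose by 0.69 ± 0.10 (SE, adjusted p = 7.7e-05) and 0.68 ± 0.12 (SE, adjusted p = 2.7e-04) in the comparisons that differ by ACLY, and Mccc1 by 0.50 ± 0.053 (SE, adjusted p = 4.3e-06) and 0.69 ± 0.061 (SE, adjusted p = 7.4e-07). The 57 genes within 10 Mb of Mccc1 had a median of -0.31 in ACLY KO against WT, on the other side of 0. Mccc2 rose by 0.46 ± 0.12 (SE, adjusted p = 0.0059) in ACLY KO, but stood at 0.11 ± 0.14 (SE, adjusted p = 0.51) in DKO1 against ACSS2 KO.

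Pcca, the biotin-bearing subunit of propionyl-CoA carboxylase, was higher in both single knockouts than in WT. Its counts were 396, 396, 493 and 434 across the WT libraries, 606, 676, 587 and 607 across those of ACLY KO, 575, 549 and 605 across ACSS2 KO and 549, 534 and 413 across DKO1. It rose by 0.53 ± 0.10 (SE, adjusted p = 6.3e-04) in ACLY KO and by 0.43 ± 0.11 (SE, adjusted p = 0.010) in ACSS2 KO, each against WT. It fell by 0.32 ± 0.11 (SE, adjusted p = 0.042) in DKO1 against ACLY KO, a call that was lost without DKO1 replicate 4 (-0.19, adjusted p = 0.14). DKO1 against WT stood at 0.21 ± 0.11 (SE, adjusted p = 0.12) with all libraries and was called at 0.34 without that one (adjusted p = 0.0062). Auh, the methylglutaconyl-CoA hydratase of leucine breakdown, was the gene called higher with ACSS2 loss in both backgrounds when all libraries were used. Its call in ACSS2 KO against WT was lost under 6 alternative settings. Auh held 249.8, 311, 223 and 235 (WT), 199.9, 189, 200.1 and 189.9 (ACLY KO), 351, 316 and 364 (ACSS2 KO) and 258, 268 and 350.0 (DKO1). ACSS2 KO exceeded WT by 0.44 ± 0.13 (SE, adjusted p = 0.020) and DKO1 exceeded ACLY KO by 0.57 ± 0.13 (SE, adjusted p = 0.0047), while ACLY KO was below WT at -0.37 ± 0.12 (SE, adjusted p = 0.017). Its 106 chromosome 13 neighbours had medians of 0.015, 0.54 and -0.85 in these comparisons. Pccb and Mcee (methylmalonyl-CoA epimerase) were highest in DKO1 replicate 4. Mcee ranged over 119 to 159.8 in ACSS2 KO and 189 to 387 in DKO1, with 0.80 ± 0.25 (SE, adjusted p = 0.018), and the call was lost without that library (0.46, adjusted p = 0.054). Pccb was called in DKO1 against WT alone, at 0.56 ± 0.17 (SE, adjusted p = 0.011).

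Among the ketone genes, only Oxct1 was called in all 4 comparisons that isolate 1 enzyme. It encodes succinyl-CoA:3-ketoacid CoA transferase, the step that commits acetoacetate to use as fuel, and lies on chromosome 15, 4026383 to 4155344. The 4 WT libraries held 4086, 4317, 4281 and 3981 normalized counts of Oxct1, the ACLY KO libraries 6257, 6907, 6466 and 6581, the ACSS2 KO libraries 4989.5, 4803 and 4967, and the DKO1 libraries 3696, 3587 and 4107. The ACLY KO libraries were the 4 highest, ACSS2 KO came next with no overlap, and WT and DKO1 overlapped at the bottom. Oxct1 rose by 0.65 ± 0.057 (SE, adjusted p = 7.7e-07) in ACLY KO and by 0.24 ± 0.062 (SE, adjusted p = 0.011) in ACSS2 KO against WT. In cells that already lacked the other enzyme the direction turned. It then fell, at -0.38 ± 0.066 (SE, adjusted p = 3.3e-04) in DKO1 against ACSS2 KO and at -0.79 ± 0.062 (SE, adjusted p = 1.5e-06) in DKO1 against ACLY KO. Both falls rest on the same DKO1 libraries. The difference between the effects of ACSS2 loss in the 2 backgrounds was -1.03 ± 0.087 (SE, adjusted p = 2.9e-06), and -1.09 without DKO1 replicate 4 (adjusted p = 2.2e-07). The 38 genes within 10 Mb had medians of 0.25, -0.011, -0.081 and -0.29 in the 4 comparisons, in the order given. Per kilobase of transcript, Oxct1 stood at 1858 normalized counts in ACLY KO and 1076 in DKO1, above Acat1 at 658 and 577. The Oxct1 promoter, chr15:4026178-4026477 on the plus strand, is given because the direction of this gene differed between backgrounds, and none of the searched letters occur in that promoter.
Oxct1: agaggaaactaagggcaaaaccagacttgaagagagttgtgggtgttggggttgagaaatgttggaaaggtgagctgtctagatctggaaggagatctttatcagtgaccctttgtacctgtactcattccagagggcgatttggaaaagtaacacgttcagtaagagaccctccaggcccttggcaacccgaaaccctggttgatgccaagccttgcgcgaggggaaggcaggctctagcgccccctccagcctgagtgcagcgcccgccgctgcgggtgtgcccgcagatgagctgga
Acat1 (mitochondrial acetoacetyl-CoA thiolase) splits the product of Oxct1 into acetyl-CoA and also ends isoleucine breakdown. Acat1 held 1916, 2138, 1721 and 1709 for WT, 2107, 2247, 2202 and 2404 for ACLY KO, 2112, 1934 and 2006 for ACSS2 KO and 1735, 1906 and 2253 for DKO1. It rose by 0.26 ± 0.091 (SE, adjusted p = 0.028) in ACLY KO against WT, although the libraries overlapped and the call was lost under 5 alternative settings, and it was not called in DKO1 against ACSS2 KO, at -0.046 ± 0.10 (SE, adjusted p = 0.73). Bdh1, the mitochondrial beta-hydroxybutyrate dehydrogenase, was at 1.124 to 6.94 for WT, 0 to 2.82 for ACLY KO, 0.744 to 4.17 for ACSS2 KO and 3.85 to 4.60 for DKO1, too low to compare. Bdh2, a cytosolic dehydrogenase also linked to an iron-binding siderophore, was low but measurable. Bdh2 held 59.8, 41.0, 36.2 and 35.5 across the WT libraries, 60.5, 59.8, 52.7 and 70.3 across those of ACLY KO, 58.6, 62.3 and 61.1 across ACSS2 KO and 93.7, 88.0 and 164 across DKO1. It was higher in DKO1 than in every other genotype, by 0.86 ± 0.22 (SE, adjusted p = 0.011) against ACLY KO and 0.86 ± 0.24 (SE, adjusted p = 0.0082) against ACSS2 KO. Omitting replicate 4 left 0.58 (adjusted p = 0.035) and, against ACSS2 KO, 0.57 (adjusted p = 0.027), and its 74 neighbours on chromosome 3 had medians of 0.32 and 0.95.

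ACLY loss was measured in both backgrounds by comparisons that share no library, ACLY KO against WT and DKO1 against ACSS2 KO. They do share a clone, because ACLY KO and DKO1 both come from D42C4 cells. A gene called in both may therefore reflect a trait of that clone, and does not repeat ACLY loss in a separate clone. The genes that rose in both were Acadvl, Acadm, Acad11, Hadh, Acaa2, Hibch and Mccc1, which are 7 of the 16 that rose in the first and of the 10 that rose in the second. The Acad11 call in DKO1 against ACSS2 KO was lost under 6 alternative settings. Of all 12711 genes, 15.0% rose in both, and 7 of the 34 members did. No member fell in both, where 16.7% of all genes did. Oxct1 alone was called in opposite directions, as were 2.72% of all genes. Once DKO1 replicate 4 was omitted, Hsd17b10 and Bdh2 joined the genes that rose in both, Auh fell in both, and Acads joined Oxct1. With all libraries, the 7 genes belong to the first dehydrogenation (Acadvl, Acadm, Acad11), the later spiral (Hadh, Acaa2) and amino acid breakdown (Hibch, Mccc1). The branched-chain and lysine dehydrogenases (4 tested genes) gave none. Nor did the auxiliary, electron transfer and ketone groups, and all of these are small, the latter with only 3 tested genes each. Their lack cannot be read against the 15.0% of all genes, and Bdh2, which joined without DKO1 replicate 4, is a ketone gene.

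**Figure D3:**
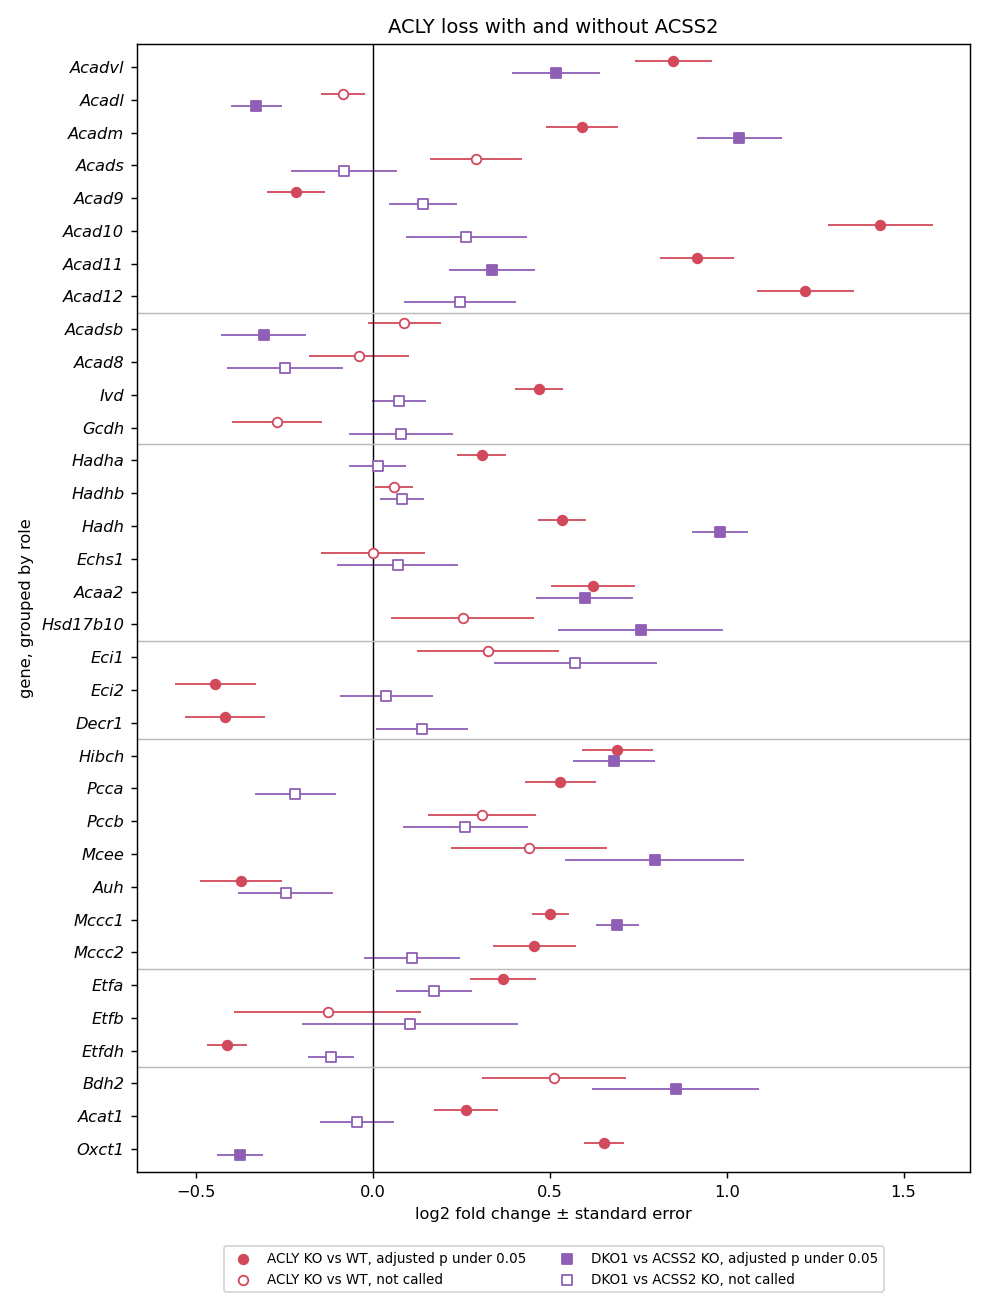
Log2 fold change ± SE on log2(normalized count + 1) for each gene in the comparisons that differ by ACLY: circles, ACLY KO against WT (4 and 4 libraries); squares, DKO1 against ACSS2 KO (3 and 3); filled symbols passed an adjusted p of 0.05. Hadh, Acadm and Mccc1 are filled to the right of 0 in both, and Oxct1 is filled on opposite sides.

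ACSS2 loss was likewise measured by comparisons that share no library, ACSS2 KO against WT and DKO1 against ACLY KO. Auh rose in both, where 2.90% of all genes did, and no member fell in both (background 2.63%). Acad10, Pcca and Oxct1 rose in ACSS2 KO and fell in DKO1, where 4.75% of all genes were called in opposite directions. Without DKO1 replicate 4, Eci2, Hsd17b10, Auh and Bdh2 rose in both, and Acads, Acad12, Ivd and Oxct1 went opposite ways. The test of the difference itself, the effect of ACSS2 loss in ACLY-deficient minus ACLY-proficient cells, called 3 members above 0 and 6 below it, near the 12.0% and 15.1% of all genes. Above 0 were Decr1, Etfdh and Hadh. Below 0 were Oxct1, Acad10, Acad12, Pcca, Acad11 and Ivd. The same test equals the difference between the effects of ACLY loss with and without ACSS2. Omitting DKO1 replicate 4, 3 members were called above 0 and 12 below (all genes 15.5% and 18%), and at equal library totals 2 and 13 (all genes 7.65% and 19.6%).

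**Figure D4:**
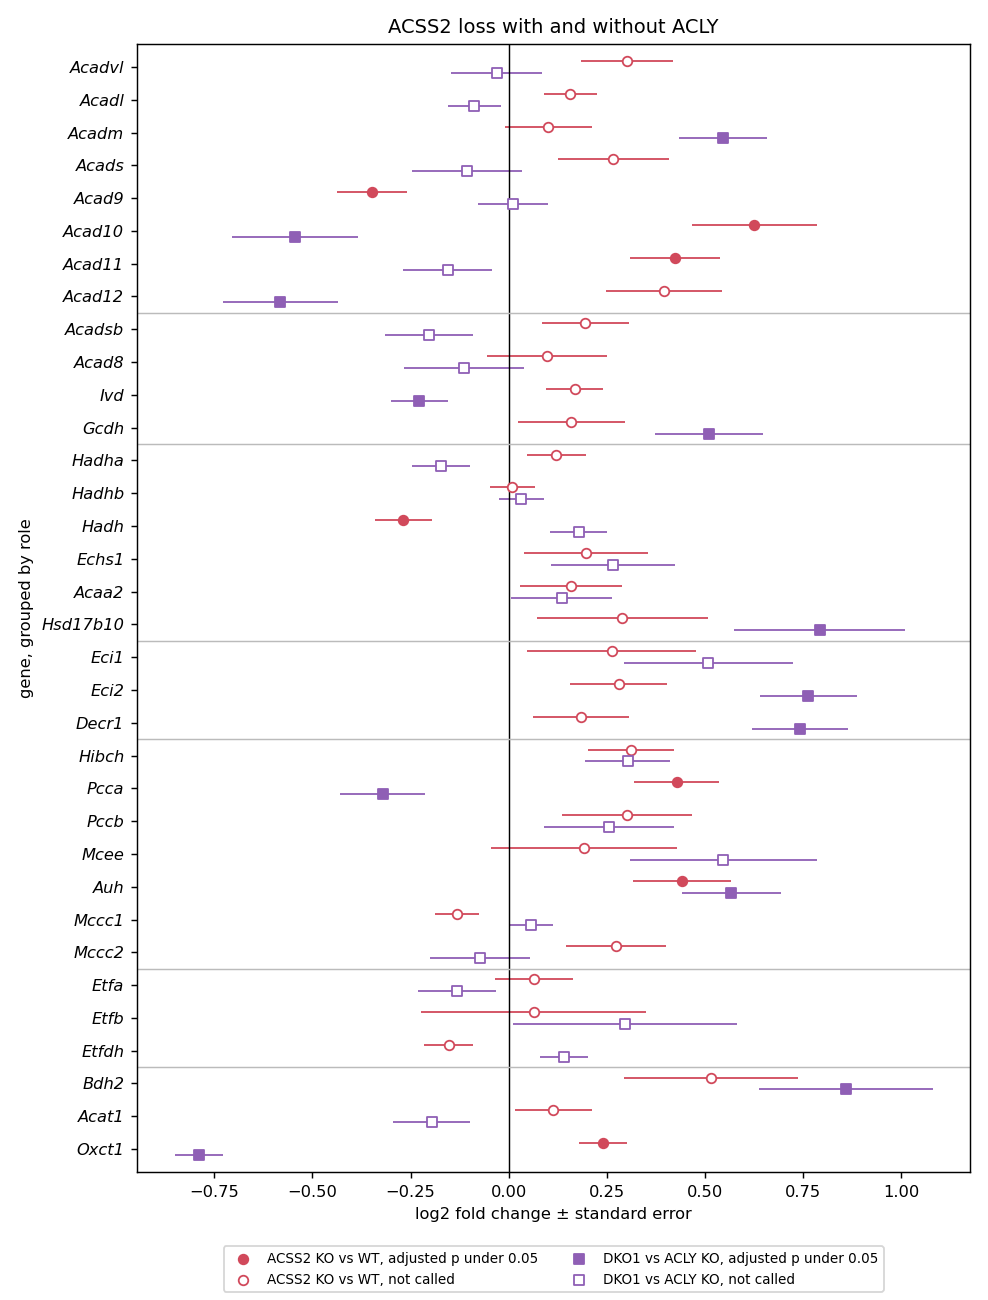
Log2 fold change ± SE on log2(normalized count + 1) for each gene in the comparisons that differ by ACSS2: circles, ACSS2 KO against WT (3 and 4 libraries); squares, DKO1 against ACLY KO (3 and 4); filled symbols passed an adjusted p of 0.05. Eci2, Decr1, Hsd17b10 and Bdh2 lie farthest right in DKO1 against ACLY KO, Oxct1 farthest left, and Auh is filled on the right in both.

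The calls in DKO1 against ACLY KO were set beside 2 checks. Leaving out DKO1 replicate 4 lowered the log2 fold change of Eci1 from 0.51 to 0.14, of Mcee from 0.55 to 0.21 and of Etfb from 0.30 to -0.16, none of which had been called. Of the 7 genes that rose, Acadm, Gcdh, Eci2, Decr1, Hsd17b10, Auh and Bdh2, each stayed called without it. The medians of their neighbours within 10 Mb ranged from -0.072 for Decr1 to 0.64 for Eci2. Decr1 was the one of the 7 whose neighbours did not lie on the same side of 0. Of the 5 genes that fell, Oxct1, Acad12 and Ivd stayed called without replicate 4, while Acad10 (-0.44, adjusted p = 0.067) and Pcca (-0.19, adjusted p = 0.14) did not. Their neighbour medians were -0.29 for Oxct1, 0.014 for Acad12 and Acad10, 0.083 for Ivd and -0.12 for Pcca.

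**Figure D5:**
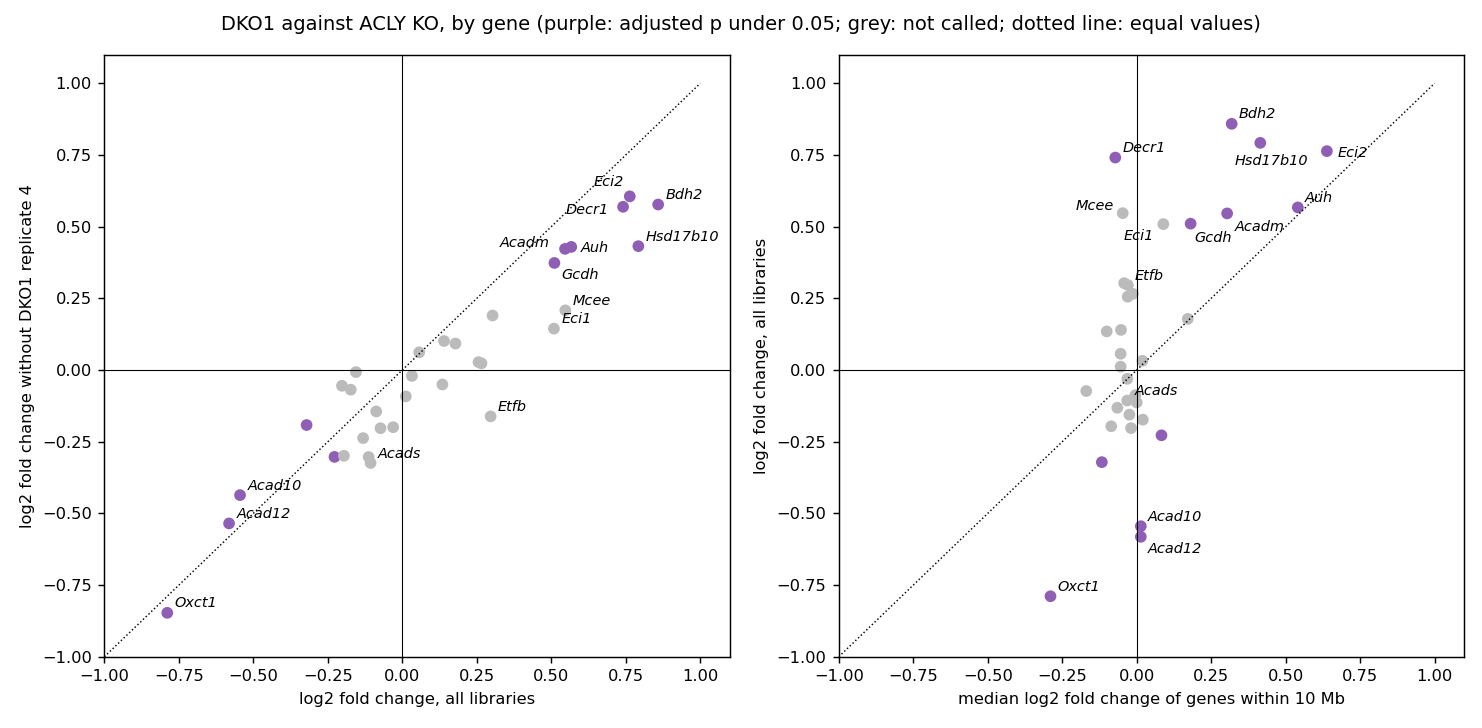
Each point is a gene in DKO1 against ACLY KO (purple, adjusted p under 0.05; grey, not called; dotted line, equal values), in log2 fold change: left, without DKO1 replicate 4 against all libraries; right, all libraries against the median of the genes within 10 Mb. Most genes with positive values lie under the dotted line at left, and at right Eci2, Auh, Hsd17b10, Acadm, Bdh2 and Gcdh sit to the right of 0 while Decr1 does not.

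Ratios of 2 genes within a library, log2((first + 1)/(second + 1)), hardly depend on its scaling. They were compared between the 7 ACLY-deficient (ACLY KO and DKO1) and 7 ACLY-proficient libraries by exact 2-sided permutation tests, adjusted over 12 ratios. The smallest possible p is 5.8e-04 before adjustment. Libraries of a line are not independent replicates of ACLY status, and both ACLY-deficient lines come from D42C4 cells. These p-values therefore describe differences between the lines and do not measure an effect of ACLY loss. Along the chain-length order, Acadm/Acadl was higher by 0.97 on the log2 scale (exact permutation, adjusted p = 0.0014), Acadl/Acadvl changed by -0.90 (exact permutation, adjusted p = 0.0014) and Acads/Acadm by -0.65 (exact permutation, adjusted p = 0.0023). Acadl was thus lower in ACLY-deficient cells relative to both of its neighbours in chain length, and Acads relative to Acadm. Among the auxiliary genes, Eci2/Eci1 changed by -0.67 and Decr1/Eci1 by -0.61 (exact permutation, adjusted p = 0.0014 for each). Etfdh/Etfa changed by -0.57 (exact permutation, adjusted p = 0.0014). These 6 ratios were called with and without DKO1 replicate 4. The pooled values join unequal genotypes. Etfdh/Etfa averaged -1.26 for WT, -2.04 for ACLY KO, -1.47 for ACSS2 KO and -1.77 for DKO1. Without DKO1 replicate 4, Eci2/Eci1 averaged 0.35 for WT, -0.42 for ACLY KO, 0.36 for ACSS2 KO and 0.037 for DKO1. The subunit ratios depended on DKO1 replicate 4. Hadha/Hadhb was 0.11 higher (exact permutation, adjusted p = 0.28) with that library and 0.18 without it (exact permutation, adjusted p = 0.0020). Etfa/Etfb was 0.31 higher with it (exact permutation, adjusted p = 0.13) and 0.47 without it (exact permutation, adjusted p = 0.0020). Mccc1/Mccc2, at 0.27 (exact permutation, adjusted p = 0.084), Pcca/Pccb, Bdh1/Oxct1 and Acat1/Oxct1 were not called. Acat1/Oxct1 averaged -1.16 for WT, -1.55 for ACLY KO, -1.29 for ACSS2 KO and -0.96 for DKO1, so the pooled comparison joins genotypes that lie on either side of the rest.

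Other genes of these pathways were counted from lists, and genes are named from among those called in at least 2 of the 4 comparisons that isolate an enzyme. Counts of called genes are set beside the shares of all genes and were not tested against them. From the list for ketone synthesis and transport, 4 genes are given. Hmgcll1 had 3.96 ± 1.96 normalized counts for WT (SD, n = 4) against 24.5 ± 7.48 for ACLY KO (SD, n = 4), and ACLY loss changed it by 2.39 and 2.17 on the log2 scale. Slc16a6, a ketone body exporter of liver, stood at -2.14 and -2.31. Aacs, which uses acetoacetate in the cytosol, fell by 0.61 in ACSS2 KO against WT and rose by 0.55 in DKO1 against ACSS2 KO. The monocarboxylate carrier Slc16a1 was lower in DKO1, at -0.30 against ACLY KO and -0.45 against ACSS2 KO.

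Of 10 tested genes of propionate and branched-chain breakdown, 5 rose and 1 fell in ACLY KO against WT (all genes 23.8% and 24.7%). In DKO1 against ACSS2 KO, 4 rose and 1 fell (all genes 25.9% and 27.8%). Dbt, the E2 subunit of the branched-chain dehydrogenase, rose by 1.004 and 0.67, and Ppm1k, the phosphatase that activates this complex, changed by -0.86 and -0.63. Mmab, of the cobalamin pathway, rose by 0.80 and 1.21 with ACLY loss, and Aldh6a1, the last valine dehydrogenase, by 1.17 and 0.65. Bckdha and Mut rose in both single knockouts, by 0.57 and 0.43 in ACLY KO and 0.48 and 0.37 in ACSS2 KO. Mmaa rose in DKO1 by 0.73 against ACLY KO and 0.58 against ACSS2 KO, the latter lost without DKO1 replicate 4. Of 4 further chain and unsaturated genes, 2 rose and 0 fell in ACLY KO against WT (all genes 23.8% and 24.7%). In DKO1 against ACLY KO, 2 rose and 0 fell (all genes 14.3% and 13.6%). Acot13, a thioesterase, rose by 1.09 and 0.85 in DKO1 against ACLY KO and ACSS2 KO. Ech1, a dienoyl-CoA isomerase, rose in both single knockouts (0.43 and 0.54), and so did the peroxisomal reductase Decr2 (0.25 and 0.55), which was lower in DKO1 than in ACSS2 KO (-0.34).

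Of 9 electron transfer partners and flavin genes, 3 rose and 1 fell in ACLY KO against WT (all genes 23.8% and 24.7%). In DKO1 against ACSS2 KO, 5 rose and 1 fell (all genes 25.9% and 27.8%). Etfbkmt, which methylates the ETF beta subunit, changed by -2.25 and -3.04, with 27.8 ± 9.51 for WT (SD, n = 4) against 5.03 ± 1.88 for ACLY KO (SD, n = 4). Its ACLY KO mean is near the floor and under the filter of 10, which the gene passed through genotypes where it was higher. Etfrf1, a regulator of ETF, rose by 0.80 and 1.01 in those comparisons. The complex I assembly factors Ndufaf1, which works beside Acad9, and Tmem126b rose as well, by 0.75 and 0.47 in ACLY KO against WT and 1.05 and 0.49 in DKO1 against ACSS2 KO. Flad1, which makes FAD, rose in DKO1 by 0.46 against ACLY KO and 0.44 against ACSS2 KO, and the mitochondrial folate and FAD carrier Slc25a32 fell by 0.39 in ACSS2 KO and rose by 0.32 in DKO1 against it. Of 10 regulators of the pathway, 5 rose and 2 fell in ACLY KO against WT (all genes 23.8% and 24.7%). In ACSS2 KO against WT, 2 rose and 0 fell (all genes 15.1% and 11.0%). In DKO1 against ACSS2 KO, 2 rose and 5 fell (all genes 25.9% and 27.8%). Of these regulators, 1 rose and 4 fell in DKO1 against ACLY KO (all genes 14.3% and 13.6%). The coactivator Ppargc1a and the estrogen-related receptor gene Esrrg, singled out after their values were seen, had the largest differences between backgrounds among them, -2.38 and -3.67. For Ppargc1a, WT libraries averaged 209.6 ± 7.62 (SD, n = 4), ACLY KO libraries averaged 708 ± 58.2 (SD, n = 4), ACSS2 KO libraries averaged 727 ± 31.8 (SD, n = 3) and DKO1 libraries averaged 482 ± 125 (SD, n = 3).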

How the data were processed

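RNA-seq counts per gene were obtained by the authors from poly(A) directional libraries aligned with STAR to GRCm38/mm10 and normalized with DESeq, and the values as deposited are treated here as a signal in normalized counts. The submitters' processing notes name DESeq2 1.0.1, and the gene annotation is not given in the sources used here. The values did not resolve into whole reads (34.0 to 60.7% of values under 20 came out whole within 0.02), so no count model was used; depth estimated from them, 1.92e+07 to 3.35e+07 reads per library, is approximate. Normalized totals were 2.36e+07 to 2.69e+07 per library.

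Genes averaging at least 10 (12711 of 24972 symbols) were fitted with limma 3.58.1 in R 4.3.3 on log2(value + 1) with an intensity trend, 1 coefficient per genotype and all 14 libraries sharing the spread. This scale understates changes of low genes. Tests were 2-sided, with Benjamini-Hochberg adjustment over all genes. The fit was tested on simulated data. Each comparison was refitted with other added constants, filters, scalings, a transcript length correction and each library left out.

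Values in every library were given for the chain-length, unsaturated, electron transfer and ketone genes, and for others called in at least 2 of the 4 single-enzyme comparisons with a log2 change of 0.5 or more. The members and lists were chosen with earlier results of these data known. Neighbour medians used tested genes within 10 Mb (GENCODE M21 positions). The table holds 26 symbols that read as dates and match no gene. No columns were left unmapped. One gene of the ketone synthesis list, and the counts over that list, are not reported here.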

Additional observations from a re-analysis of the deposited data

Results flagged for a closer look

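Among 70 checks of 1 gene in 1 genotype of 4 libraries, 1 library lay far from the others: WT replicate 2, with 3296 normalized counts of Hadha against 3576 to 3620 in the other WT libraries. Chance flags about 1 in 20 such groups.

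The effect of ACSS2 loss differed between ACLY-deficient and ACLY-proficient cells for 9 of the 34 tested genes, by the limma test of the difference itself, a share near that of all genes (27.1% called). Below 0 on the log2 scale were Acad10 at -1.17 (adjusted p = 0.0019), Oxct1 at -1.03 (adjusted p = 2.9e-06), Acad12 at -0.98 (adjusted p = 0.0038), Pcca at -0.75 (adjusted p = 0.0028), Acad11 at -0.58 (adjusted p = 0.018) and Ivd at -0.40 (adjusted p = 0.012). Above 0 were Decr1 at 0.56 (adjusted p = 0.030), Hadh at 0.45 (adjusted p = 0.0061) and Etfdh at 0.29 (adjusted p = 0.024). Acad10 and Acad12 are adjacent paralogs whose reads the counting may have shared.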

How the results depend on the processing

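The 7 members called in ACSS2 KO against WT became 17 at equal library totals, 20 with a transcript length correction and 3 to 20 when 1 library was left out (3 without ACSS2 KO replicate 4, 12 without WT replicate 2, 20 without DKO1 replicate 4). Over all genes the share called was 26% at first, 26.6% at equal totals, 40.6% with the length correction and 40% without DKO1 replicate 4. The 9 called for the difference between backgrounds became 15 at equal totals, 18 with the length correction and 6 to 15 with 1 library left out (6 without ACSS2 KO replicate 4, 14 without DKO1 replicate 1, 15 without DKO1 replicate 4), where the shares over all genes were 27.1% at first, 27.2%, 39.4% and 33.5% without DKO1 replicate 4; the causes were not tested. With 1 library left out, ACLY KO against WT gave 19 to 28 calls, DKO1 against ACSS2 KO 10 to 14, DKO1 against ACLY KO 10 to 14 and DKO1 against WT 16 to 22. None of the 82 calls of a member changed sign under the alternatives run, and 59 of 73 held when only the genotypes compared entered the fit. The least stable were Acadl in DKO1 against WT, lost under 17 alternatives, Acad9 in ACLY KO against WT, Acadsb in DKO1 against ACSS2 KO and Eci2 in DKO1 against WT, each lost under 14, and Pcca in DKO1 against ACLY KO, lost under 13.

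Among ratios, leaving out 1 library gave 0.082 to 0.18 for Hadha/Hadhb, 0.265 to 0.47 for Etfa/Etfb, -0.17 to 0.095 for Pcca/Pccb, 0.22 to 0.33 for Mccc1/Mccc2 and -0.36 to 0.165 for Bdh1/Oxct1. Pcca/Pccb turned sign without DKO1 replicate 4, and Bdh1/Oxct1 without ACLY KO replicate 3 or, at 0.043, WT replicate 2.

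Same-numbered libraries of different genotypes deviated from their group means with correlations of -0.43 to 0.45 over 18 pairs, 5 of them above 0.1. The pairs of replicate 3 stood at 0.20, 0.37 and 0.27. Because the transcript length trend of single libraries also enters these deviations, the check cannot decide whether the numbers pair the samples. With the replicate number as a block, 21 members were called in ACLY KO against WT, 13 in DKO1 against ACSS2 KO, 6 in ACSS2 KO against WT, 10 in DKO1 against ACLY KO, 18 in DKO1 against WT and 11 for the difference, and 75 of the 82 calls held. With 3 or 4 libraries of 1 clone per knockout, small differences in low genes such as Bdh1 could not be resolved.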
